A study of Mus musculus with 15 samples.

Results

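Chemokines are small secreted proteins that guide cells carrying the matching receptors, and 10 genes for such ligands are described here in mouse brain during demyelination. They were taken by symbol from the deposited tables: Ccl2, Ccl3, Ccl4, Ccl6, Ccl9, Ccl12, Cxcl10, Cxcl12, Cxcl16 and Cx3cl1, 10 of the 21293 genes listed in any table. Tissue was mixed corpus callosum and neocortex of 15 wild type mice, profiled by RNA sequencing in 3 groups of 5. The siponimod group received 0.25% (w/w) cuprizone for 3 weeks together with siponimod at 3.125 mg/kg. The vehicle group received the same 0.25% cuprizone for 3 weeks with the vehicle in place of the drug. Control mice had standard chow and no treatment, and no vehicle is named for them, so cuprizone and vehicle cannot be told apart in comparisons with control. Cuprizone, which chelates copper, kills the myelin-forming oligodendrocytes, and siponimod is a modulator of sphingosine phosphate receptors used in multiple sclerosis.

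Cuprizone demyelination is known to proceed with activation of microglia and astrocytes behind a largely closed blood-brain barrier. The CC chemokines Ccl2, Ccl3, Ccl4, Ccl6, Ccl9 and Ccl12 and the interferon-responsive Cxcl10 are inducible: they are made at low level in resting brain and switched on in activated glia. Cx3cl1, a membrane-bound ligand of neurons that signals to microglia, and Cxcl12, made by vessels, meninges and some neurons, are constitutive. Cxcl16, a membrane-bound chemokine that also acts as a scavenger receptor, was kept apart from both classes.

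Abundance is given in TPM, the share of a library's transcripts that a gene makes up after correction for transcript length, so levels of different genes can be set side by side. The labels describe a total RNA kit and the files a 3 prime mRNA analysis, and how far the length correction suits these libraries was not tested. For 8 of the 10 genes a TPM was available in all 15 mice. Ccl2 and Ccl12 had values in the 10 vehicle and control mice only, and their levels in siponimod mice are not analysed here.

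The 10 genes sit at 6 places in the genome (GRCm38, GENCODE M21). On chromosome 11 lies Ccl9 (ENSMUSG00000019122, chr11:83572919-83578636, minus strand), beside Ccl6 (ENSMUSG00000018927, chr11:83587882-83593087, minus strand). Ccl3 (ENSMUSG00000000982, chr11:83647844-83649355, minus strand) and Ccl4 (ENSMUSG00000018930, chr11:83662584-83664683, plus strand) follow in the same run of CC chemokine genes, which spans 138906 bases from Ccl5 to Ccl4. A second run of 270120 bases on the same chromosome holds Ccl2 (ENSMUSG00000035385, chr11:82035571-82037453, plus strand) and Ccl12 (ENSMUSG00000035352, chr11:82101845-82103400, plus strand). Cxcl16 (ENSMUSG00000018920, chr11:70453983-70459984, minus strand) lies elsewhere on chromosome 11. The other 3 are on separate chromosomes: Cxcl10 (ENSMUSG00000034855, chr5:92346638-92348889, minus strand), Cxcl12 (ENSMUSG00000061353, chr6:117168535-117181367, plus strand) and Cx3cl1 (ENSMUSG00000031778, chr8:94772009-94782427, plus strand). Exons and introns of Ccl2, Ccl6, Cxcl10 and Cxcl16 overlap a gene on the opposite strand (Gm17268, E230016K23Rik, Art3 and Zmynd15), and whether the counting used strand is not given in the sources used here. Shared sequence was small: the share of 31-base words found in another gene was 3.75% for Ccl9, 1.02% for Ccl6, 0.11% for Cxcl12 and 0.0% for the other 7.

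Promoter windows of 300 bases (250 before and 50 after the transcription start, RefSeq on GRCm38.p6, gene strand) were available for 7 of the 10 genes. Windows of 4 genes are shown because they contrast an interferon-responsive, an inducible CC and both constitutive chemokines. Capitals mark matches to the motifs named after them.

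Cxcl10: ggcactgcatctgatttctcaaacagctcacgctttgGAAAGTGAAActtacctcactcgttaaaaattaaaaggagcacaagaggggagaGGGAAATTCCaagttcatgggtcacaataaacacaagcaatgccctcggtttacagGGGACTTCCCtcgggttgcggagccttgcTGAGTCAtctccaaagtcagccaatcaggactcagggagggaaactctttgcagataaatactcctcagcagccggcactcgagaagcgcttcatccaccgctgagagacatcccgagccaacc
Ccl3: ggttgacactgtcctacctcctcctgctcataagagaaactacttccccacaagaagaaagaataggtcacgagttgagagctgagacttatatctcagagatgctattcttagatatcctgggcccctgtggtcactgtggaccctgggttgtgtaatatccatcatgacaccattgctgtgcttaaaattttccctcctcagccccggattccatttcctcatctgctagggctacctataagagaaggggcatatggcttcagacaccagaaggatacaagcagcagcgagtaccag
Cx3cl1: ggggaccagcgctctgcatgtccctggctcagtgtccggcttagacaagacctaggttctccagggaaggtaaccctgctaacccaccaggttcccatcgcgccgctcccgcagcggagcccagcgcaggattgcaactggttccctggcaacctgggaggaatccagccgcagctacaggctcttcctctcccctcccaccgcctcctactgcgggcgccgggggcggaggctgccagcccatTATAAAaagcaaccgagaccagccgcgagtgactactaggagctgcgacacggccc
Cxcl12: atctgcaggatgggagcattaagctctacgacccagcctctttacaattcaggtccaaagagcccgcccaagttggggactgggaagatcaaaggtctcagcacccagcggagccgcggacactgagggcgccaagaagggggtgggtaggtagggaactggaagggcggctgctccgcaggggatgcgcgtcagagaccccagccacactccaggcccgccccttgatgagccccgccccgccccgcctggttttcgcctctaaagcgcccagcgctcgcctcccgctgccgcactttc

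The windows lie at chr5:92348840-92349139 (minus strand), chr11:83649329-83649628 (minus strand), chr8:94771930-94772229 (plus strand) and chr6:117168285-117168584 (plus strand). In the Cxcl10 window the NF-kappaB consensus matched at GGGAAATTCC (bases -159 to -150 from the start) and GGGACTTCCC (bases -103 to -94). The interferon response element core (GAAA, any 2 bases, GAAA) matched there as GAAAGTGAAA, and the AP-1 core TGANTCA as TGAGTCA. In Ccl9 the NF-kappaB consensus matched at GGAAAGCCCC (bases -35 to -26), and TGANTCA matched as TGAATCA. Among all 32851 RefSeq mouse windows, searched on both strands, 4.51% held the NF-kappaB consensus, 3.44% held the interferon response element core, 7.81% held TGANTCA and 13.6% held TATAAA. The letters of the TATA box core, TATAAA, were present in the windows of Ccl12 (bases -31 to -26), Cx3cl1 (bases -6 to -1) and Ccl9. In Ccl9 they lay at bases -92 to -87 and, on the other strand, at -224 to -219 and -94 to -89. None of these letters was found in the windows of Ccl3, Ccl6 or Cxcl12. Base composition differed between the classes: CpG dinucleotides numbered 19 in Cx3cl1 and 20 in Cxcl12, against 2 in Ccl6, 2 in Ccl9, 2 in Ccl12, 3 in Ccl3 and 10 in Cxcl10. The median over all windows was 7 (quartiles 3 and 20). These are matches of letters, not measured binding.

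**Figure D1:**
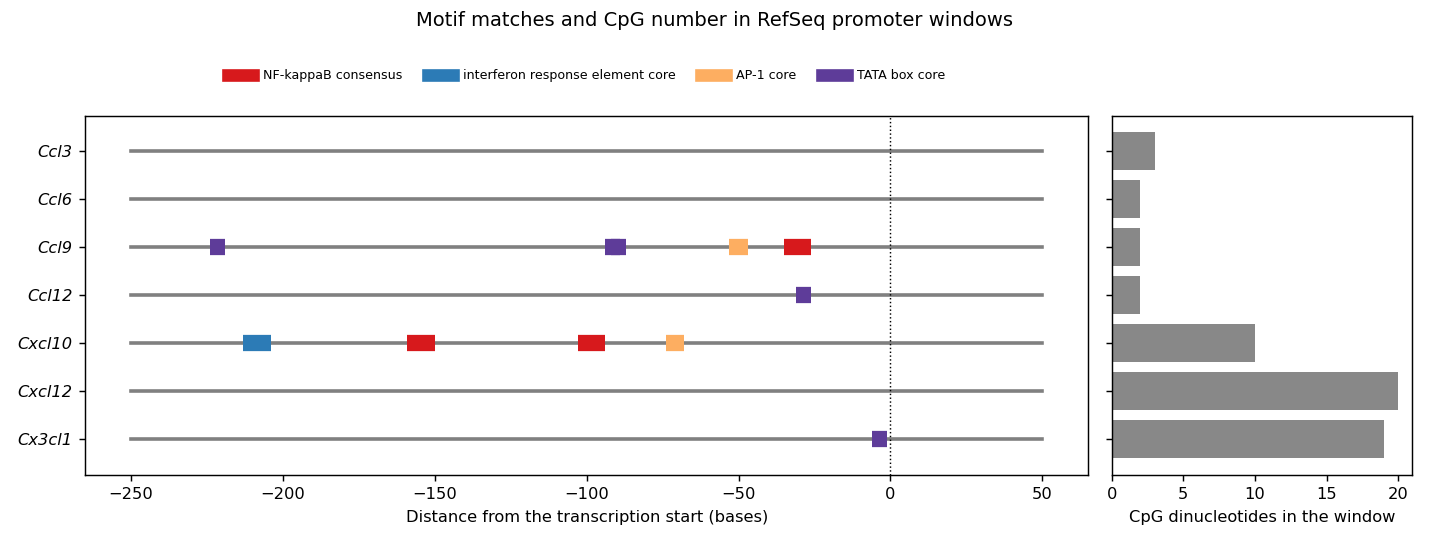
Motif matches along 7 RefSeq promoter windows (left, distance from the transcription start in bases; coloured blocks are matches on either strand) and the number of CpG dinucleotides in each window (right, bars). Cxcl10 carries 4 matches of 3 kinds and Ccl9 also has matches of 3 kinds. Cxcl12 and Cx3cl1 have the most CpG dinucleotides of the 7 windows, 20 and 19.

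No member was under 0.5 TPM in most of its mice. In control brain alone, however, most mice were under 0.5 TPM for Ccl3 (5 of 5), Ccl4 (5 of 5), Cxcl10 (4 of 5) and Ccl2 (3 of 5). Ccl12 was under 0.5 TPM in 2 of 5 control mice, and Ccl9 in 1 of 5. Cx3cl1, Cxcl12, Ccl6 and Cxcl16 were above 0.5 TPM in every mouse. The test took genes that exceeded 0.5 TPM in 5 or more mice, and all 8 members with complete values passed. Ccl3 and Ccl4 passed through the cuprizone groups alone and Cxcl10 with a single control mouse, so counts over the members tested are descriptions.

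The library of vehicle mouse 1 differed from the other 14. The median TPM of tested genes was 5.54 in that mouse, against 11.8 to 13 in the others. The noncoding RNA Bc1 made up 35.3% of its TPM, against 6.02% to 10.8% elsewhere. Because this moved the median gene by -0.21 log2 units in vehicle against control and by 0.21 in siponimod against vehicle, log2 fold changes below have the shift of the median gene subtracted. Siponimod mouse 1 was also high for many of the genes below, and each comparison is given with and without both mice numbered 1. The fit was limma on log2(TPM + 0.5) with 15 mice, p-values were adjusted over 17714 genes (Benjamini-Hochberg, 0.05), and the pseudocount understates changes of genes near 0. P-values test the difference before the median was subtracted. The labels do not say whether mice were handled in separate batches.

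Vehicle brains had far more RNA of several CC chemokines than control brains. Ccl3 and Ccl4, which attract macrophages and T cells, had the largest relative changes of the 10 genes at 3.52 and 3.28 log2 units. Ccl6 also rose and, with a mean of 15.5 TPM, was the most abundant inducible chemokine of vehicle brain. Cxcl10 and Cxcl16 rose as well, whereas Cx3cl1 and Cxcl12 did not pass the test with all mice.

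Ccl3 had 5.71, 5.31, 7.67, 2.06 and 20.9 TPM in vehicle mice 1 to 5, against 0.354, 0.401, 0.178, 0 and 0.14 TPM in control mice 1 to 5. Every vehicle mouse was above every control mouse, and vehicle mouse 5 was the highest by a wide margin. The relative log2 fold change was 3.52 (95% interval 2.52 to 4.52; limma adjusted p = 0.000844), and it was 3.38 (adjusted p = 0.000529) without both mice numbered 1.

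Ccl4, encoded next to Ccl3, had 7.05, 3.67, 5.96, 2.40 and 10.2 TPM in vehicle mice, against 0.291, 0.165, 0, 0.184 and 0.344 TPM in control mice. Again the groups did not overlap, and control mouse 3 was listed at 0. The relative log2 fold change was 3.28 (2.5 to 4.06; limma adjusted p = 0.000175), and 3.0 (adjusted p = 0.000103) without both mice numbered 1.

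Ccl6, a mouse CC chemokine of myeloid cells that binds Ccr1, had 16.1, 12, 12.3, 8.17 and 28.8 TPM in vehicle mice, against 2.53, 1.67, 2.65, 1.33 and 2.44 TPM in control mice. It was the only inducible gene above 1 TPM in all 5 control mice, and no vehicle value reached down to them. The relative log2 fold change was 2.72 (1.84 to 3.61; limma adjusted p = 0.00327), and 2.5 (adjusted p = 0.000293) without both mice numbered 1.

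Ccl9, a close relative of Ccl6 and its neighbour on chromosome 11, had 2.69, 3.82, 5.68, 3.38 and 8.81 TPM in vehicle mice, against 2.26, 0.536, 2.32, 0.481 and 0.571 TPM in control mice. The groups did not overlap, but control mice 1 and 3 were close to the lowest vehicle mouse and well above the other 3 control mice. With all mice the relative log2 fold change of 1.91 (0.865 to 2.96) did not pass the test (limma adjusted p = 0.163). It passed without both mice numbered 1 (1.89; adjusted p = 0.0245) and with libraries scaled to a common median (1.90; adjusted p = 0.0479). Without vehicle mouse 1 alone it did not pass (limma adjusted p = 0.0531). Annotated Ccl9 transcripts differ widely in length, 398 and 3006 bases, so its TPM also depends on which of them were assigned. The same limit applies to Cx3cl1 (377 to 3315 bases), Cxcl10 (344 to 2230 bases) and Cxcl12 (1878 to 5627 bases), and to levels compared between genes.

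The Ccr2 ligands, which draw monocytes, could be compared in vehicle and control mice only, in a fit of those 10 mice that was chosen after the data were seen. Ccl12 had 3.94, 1.66, 3.94, 1.95 and 7.64 TPM in vehicle mice, against 0.596, 0.449, 0.354, 0.5 and 0.553 TPM in control mice. Its groups did not overlap, and its relative log2 fold change was 2.18 (1.48 to 2.87; limma adjusted p = 0.0126 over 17789 genes, of which 0.304% were called higher, or 1.21% without vehicle mouse 1). Without vehicle mouse 1 it was 1.95 (adjusted p = 0.00793). The call was lost without control mouse 2 (adjusted p = 0.0523) or control mouse 4 (adjusted p = 0.0503). Ccl2 had 1.31, 0.511, 1.25, 0.328 and 2.96 TPM in vehicle mice, against 0.654, 0.740, 0.493, 0 and 0.389 TPM in control mice. Those values overlapped, and the relative log2 fold change of 0.98 (0.151 to 1.81) did not pass the test (adjusted p = 0.612; 0.75 and 0.452 without vehicle mouse 1). Vehicle brain held a mean of 3.83 ± 2.39 TPM of Ccl12 and 1.27 ± 1.04 TPM of Ccl2 (SD, n = 5 each).

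Cxcl10, an interferon-responsive ligand of Cxcr3, had 2.24, 3.99, 5.07, 1.68 and 7.02 TPM in vehicle mice, against 0.224, 0.507, 0.338, 0.189 and 0.357 TPM in control mice. All vehicle mice were above all control mice. The relative log2 fold change was 2.53 (1.92 to 3.14; limma adjusted p = 0.000236), and 2.5 (adjusted p = 7.28e-05) without both mice numbered 1.

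Cxcl16, the ligand of Cxcr6, had 3.48, 3.16, 2.84, 2.17 and 5.79 TPM in vehicle mice, against 0.667, 1.03, 1.45, 1.44 and 0.845 TPM in control mice. The groups did not overlap. Its relative log2 fold change was 1.51 (1.03 to 1.99; limma adjusted p = 0.00528), below that of each inducible gene that passed the test in the same fit. It was 1.31 (adjusted p = 0.0031) without both mice numbered 1.

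Cx3cl1 had 138, 343, 374, 383 and 314 TPM in vehicle mice, against 403, 439, 418, 407 and 414 TPM in control mice. Every vehicle mouse was below every control mouse, and vehicle mouse 1 was far below the other 4. With all mice the relative log2 fold change of -0.30 (-0.746 to 0.152) did not pass the test (limma adjusted p = 0.454). The spread was smaller without both mice numbered 1, and Cx3cl1 was then called lower, by a relative log2 fold change of -0.21 (-0.331 to -0.0846; adjusted p = 0.0284). That was the only 1 of 23 alternatives with a call. Leaving out 1 mouse at a time, vehicle mouse 1 included, gave limma adjusted p of 0.0999 or more. The library of vehicle mouse 1 also had a low median. Scaled to a common median of tested genes, its Cx3cl1 was 301 TPM, within the 294 to 381 TPM of the other vehicle mice, against 381 to 424 TPM in control mice. The summed TPM of 6 neuronal markers was 1880 in that mouse as deposited, against 3820 to 4470 in the other 14 mice, and 4080 after scaling, against 3790 to 4360. Scaling did not bring every gene list into range. The sum of 6 endothelial and pericyte markers in that mouse was 89.3 as deposited, against 92.8 to 97.1 in the other vehicle mice. After scaling it was 194, against 88.0 to 94.5. The sum of 8 other chemokine ligands was 393 as deposited, against 344 to 392, and 856 after scaling, against 322 to 399. Why Cx3cl1 was low in that mouse was not tested.

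Cxcl12, which acts through Cxcr4 and Ackr3, had 14.7, 33.1, 29.5, 28.3 and 26.5 TPM in vehicle mice, against 33.0, 33.7, 35.0, 35.1 and 34.1 TPM in control mice. Vehicle mouse 2 lay at the low end of the control range and the other 4 vehicle mice were below it, although scaling to a common median put vehicle mouse 1 at 32.0 TPM, against 32.4 to 33.3 TPM in control mice. The relative log2 fold change of -0.20 (-0.548 to 0.142) did not pass the test (limma adjusted p = 0.418). It was -0.19 without both mice numbered 1 (adjusted p = 0.0547) and -0.19 without vehicle mouse 1 alone, where it passed (adjusted p = 0.0484).

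In vehicle against control, then, 5 of the 8 members with complete values were called, all higher, and of all tested genes 0.423% were called higher and 0.819% lower. Without both mice numbered 1 the count was 7 of 8, with 6 higher and Cx3cl1 lower, beside 1.95% of genes called higher and 2.4% lower. Siponimod mouse 1 enters this comparison only through the shared spread and was left out for being high in these genes, so that count is a description. Without vehicle mouse 1 alone the count was 6 of 8, beside 652 of 17704 genes. Cxcl12 then passed, and Ccl9 and Cx3cl1 did not. Of all 10 members, 7 had vehicle values entirely above the control values and 1, Cx3cl1, had them entirely below. For 0.965% of tested genes all vehicle values were above all control values, and for 4.06% they were below. Both shares use TPM as deposited, where the low library median of vehicle mouse 1 makes vehicle values above all control values rarer. The median relative log2 fold change was 2.72 over the 5 inducible genes in the fit and -0.25 over the 2 constitutive genes. The middle 95% of all tested genes ran from -0.437 to 0.615. Of the 10 members in the authors' deposited table, 8 had an adjusted p under 0.05: those with higher vehicle values were Ccl3 (log2 fold change 5.35), Ccl4 (4.77), Cxcl10 (3.84), Ccl12 (3.03), Ccl6 (2.93), Ccl9 (1.96) and Cxcl16 (1.62). Cx3cl1 was lower in the same deposited table (-0.21, adjusted p = 0.0292), and 3.86% of its genes were called higher and 2.8% lower.

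**Figure D2:**
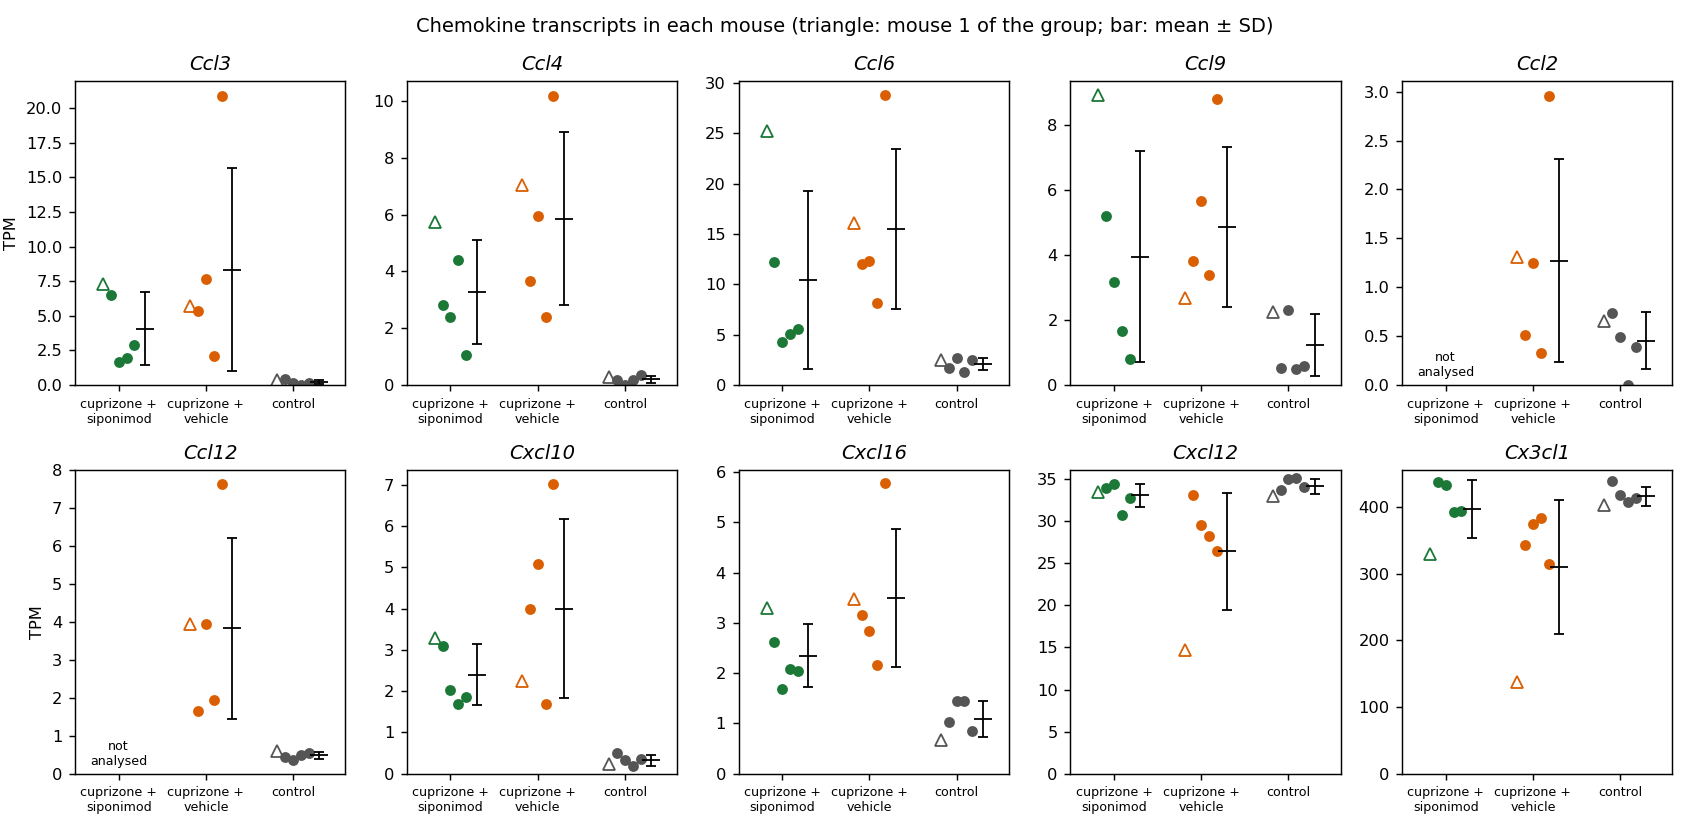
TPM of each chemokine (vertical axes, linear from 0, a scale for each gene) in every mouse of the siponimod, vehicle and control groups; points are mice, triangles are the mice numbered 1, and bars are mean ± SD. Ccl3, Ccl4, Ccl6 and Cxcl10 are higher in all vehicle mice than in any control mouse, while vehicle mouse 1 is lowest for Cxcl12 (14.7 TPM) and Cx3cl1 (138 TPM) in these unscaled values.

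Siponimod brains also held more Ccl3, Ccl4 and Cxcl10 RNA than control brains, with smaller estimates than in vehicle brains. Ccl3 had 7.30, 6.53, 1.67, 1.97 and 2.87 TPM in siponimod mice 1 to 5, against 0 to 0.401 TPM in control mice. Mice 1 and 2 were high and the other 3 formed a lower set, yet all 5 were above every control mouse. The relative log2 fold change was 2.5 (1.5 to 3.5; limma adjusted p = 0.0141). The call was lost without siponimod mouse 1 (adjusted p = 0.0525), siponimod mouse 2 (0.0562), control mouse 4 (0.0592) or control mouse 5 (0.0506), each left out alone.

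Ccl4 had 5.75, 2.81, 2.38, 4.39 and 1.05 TPM in siponimod mice, against 0 to 0.344 TPM in control mice. No values overlapped, and the relative log2 fold change was 2.30 (1.52 to 3.08; limma adjusted p = 0.00348). Cxcl10 had 3.28, 3.10, 2.02, 1.70 and 1.87 TPM in siponimod mice, against 0.189 to 0.507 TPM in control mice. It was the least variable inducible gene among siponimod mice, with the highest 1.93 times the lowest, and its relative log2 fold change was 1.78 (1.17 to 2.39; adjusted p = 0.00364).

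Ccl6 had 25.2, 12.2, 4.24, 5.02 and 5.53 TPM in siponimod mice, against 1.33 to 2.65 TPM in control mice. The groups were separate, and siponimod mouse 1 was above 4 of the 5 vehicle mice. With all mice its relative log2 fold change of 1.76 (0.877 to 2.65) did not pass the test (limma adjusted p = 0.0755). It passed without both mice numbered 1 (1.37; adjusted p = 0.0421), without siponimod mouse 3 (1.99; adjusted p = 0.0460), without vehicle mouse 1 (0.0269) or 5 (0.0483), and in a fit of siponimod and control mice alone (0.0292).

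Ccl9 had 8.93, 5.22, 3.16, 1.65 and 0.801 TPM in siponimod mice, against 0.481 to 2.32 TPM in control mice. With the highest siponimod mouse 11.1 times the lowest, it was the most variable of the 8 genes in that group, and the groups overlapped. Its relative log2 fold change was 1.2 (0.15 to 2.24; limma adjusted p = 0.81).

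Cxcl16 had 3.30, 2.62, 1.69, 2.09 and 2.04 TPM in siponimod mice, against 0.667 to 1.45 TPM in control mice. Although no values overlapped, the relative log2 fold change of 0.84 (0.357 to 1.32) did not pass the test (limma adjusted p = 0.171). It passed when siponimod and control mice were fitted alone (adjusted p = 0.0275).

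Neither constitutive gene was called (limma adjusted p = 1.0 for both). Cx3cl1 had 330, 438, 433, 393 and 394 TPM in siponimod mice, against 403 to 439 TPM in control mice, a relative log2 fold change of -0.08 (-0.531 to 0.367). Cxcl12 had 33.5, 33.9, 34.4, 30.8 and 32.8 TPM in siponimod mice, against 33.0 to 35.1 TPM in control mice, a relative log2 fold change of -0.05 (-0.399 to 0.291). Values of both genes overlapped between the groups.

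Without both mice numbered 1, relative log2 fold changes in siponimod against control were 2.26 for Ccl3 (limma adjusted p = 0.0189), 2.08 for Ccl4 (0.00356) and 1.68 for Cxcl10 (0.00291), all still called. They were 0.84 for Ccl9 (0.492), 0.73 for Cxcl16 (0.148), -0.02 for Cx3cl1 (0.98) and -0.06 for Cxcl12 (0.837), none called.

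Altogether 3 of 8 members were called in siponimod against control, all higher, beside 0.209% of tested genes called higher and 0.536% lower, and 4 of 8 without both mice numbered 1, beside 0.811% called higher and 1.19% lower. For 5 of 8 members all siponimod values were above all control values, as they were for 2.74% of tested genes, with 2.09% below. The 5 inducible genes had a median relative log2 fold change of 1.78 and the 2 constitutive genes one of -0.07, and the middle 95% of tested genes ran from -0.433 to 0.45. The vehicle and siponimod comparisons share the control mice. Of the 8 members in the authors' deposited table, 6 had an adjusted p under 0.05, all higher in siponimod mice, beside 2.55% of its genes called higher and 2.6% lower.

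Set directly against each other, siponimod and vehicle brains gave no call for any member. Estimates of all 5 inducible genes and Cxcl16 were lower in siponimod mice, and those of Cxcl12 and Cx3cl1 were higher. The relative log2 differences were -1.01 for Ccl3 (-2.01 to -0.0152), -0.97 for Ccl4 (-1.75 to -0.189), -0.95 for Ccl6 (-1.84 to -0.0705) and -0.71 for Ccl9 (-1.75 to 0.34). Cxcl10 had -0.74 (-1.35 to -0.13) and Cxcl16 -0.66 (-1.14 to -0.18). For Cxcl12 the difference was 0.16 (-0.188 to 0.502) and for Cx3cl1 0.22 (-0.225 to 0.673). These intervals are not adjusted for the number of genes and are moved by the median shift, and they leave room for a difference of more than 1 log2 unit in each inducible gene. Values of the groups overlapped for all 8 members, while siponimod values lay above all vehicle values in 2.04% of tested genes and below them in 0.0339%. These shares use TPM as deposited, where the low library median of vehicle mouse 1 leaves little room for siponimod values below all vehicle values.

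The limma adjusted p was 0.496 for 7 of the 8 members and 0.536 for Ccl9. Over all genes limma called 0.0% (0 of 17714), with 874 genes at an unadjusted p under 0.05. Of the members only Cxcl12 was among those 874, and that p includes the shift of vehicle mouse 1. Without both mice numbered 1 limma again called 0 of 17636 genes, and 1731 genes had an unadjusted p under 0.05. All 8 members were then among them, with Cx3cl1 (relative log2 difference 0.20, unadjusted p = 0.00186, adjusted p = 0.33) and Ccl6 (-1.12, unadjusted p = 0.0067, adjusted p = 0.362) the smallest. The other relative log2 differences were then -1.12 for Ccl3, -0.915 for Ccl4, -1.04 for Ccl9, -0.813 for Cxcl10, -0.58 for Cxcl16 and 0.137 for Cxcl12. Siponimod mouse 1 was left out for being high in these genes, which by itself lowers the siponimod side of the inducible genes and Cxcl16. With vehicle mouse 1 alone left out, limma unadjusted p was 0.108 for Ccl3, 0.1 for Ccl4, 0.127 for Ccl6 and 0.211 for Ccl9. The authors' deposited table called 279 of 13589 genes (1.41% higher and 0.64% lower). It lists 5 members, none with an adjusted p under 0.05: Cxcl16 (log2 fold change -0.77, adjusted p = 0.0654), Cx3cl1 (0.19, 0.113), Ccl6 (-1.35, 0.124), Ccl9 (-0.71, 0.505) and Cxcl12 (0.07, 0.734).

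**Figure D3:**
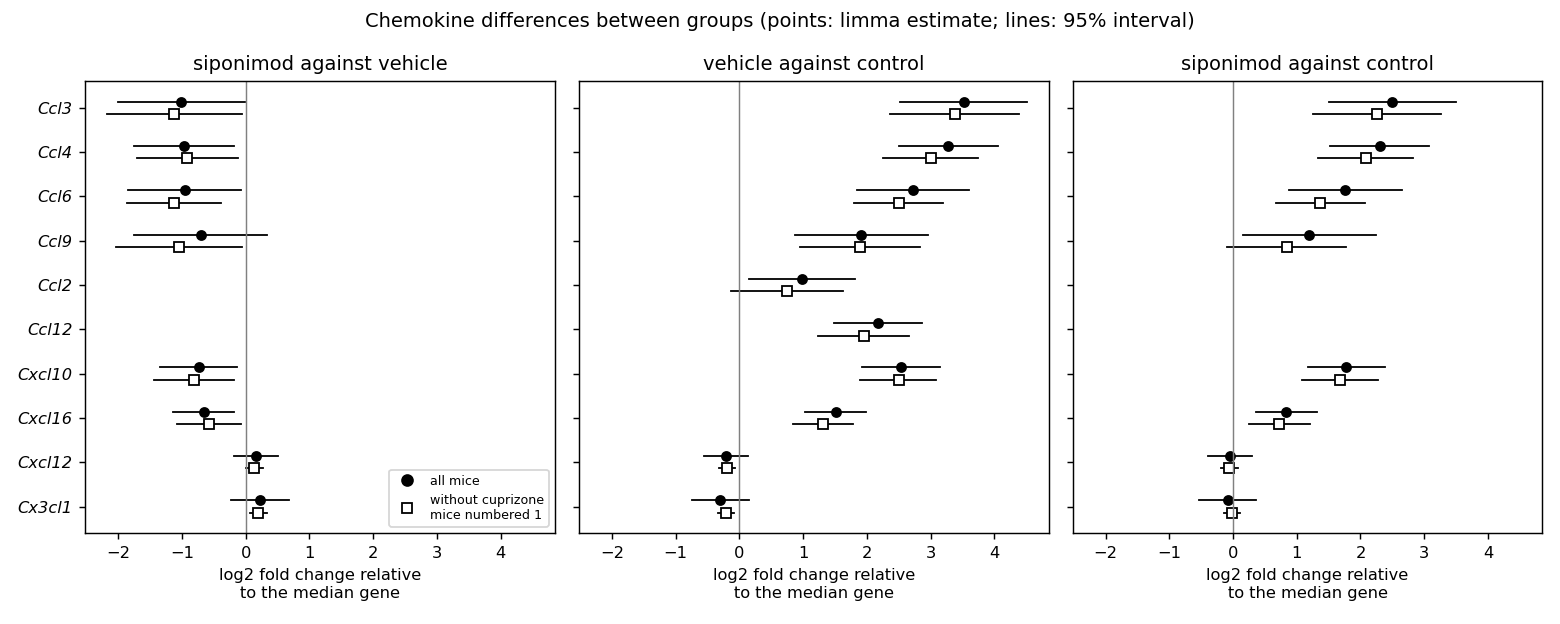
Log2 fold change relative to the median gene (horizontal axes) for siponimod against vehicle, vehicle against control and siponimod against control; filled circles use all mice, open squares leave out both mice numbered 1, and lines are 95% limma intervals. The 5 inducible genes with complete values and Cxcl16 lie right of 0 in both comparisons with control and left of 0 between siponimod and vehicle, and Ccl2 and Ccl12 have an estimate for vehicle against control only.

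Group means of the constitutive chemokines were above those of every inducible gene in all 3 groups, although Ccl6 exceeded Cxcl12 in vehicle mice 1 and 5. Mean Cx3cl1 was 397 ± 43.3 TPM in siponimod mice (SD, n = 5). Vehicle mice averaged 311 TPM with a range of 138 to 383 TPM, and control mice 416 ± 14.2 TPM (SD, n = 5). Cx3cl1 made up 79.1% to 89.7% of the summed TPM of the 8 genes in siponimod mice, 72.7% to 88.8% in vehicle mice and 90.9% to 92.0% in control mice. The summed TPM of Ccl3, Ccl4, Ccl6, Ccl9 and Cxcl10 was 12.1 to 50.4 in siponimod mice, 17.7 to 75.7 in vehicle mice and 2.18 to 5.65 in control mice. The smallest ratios of Cx3cl1 to that sum were 4.09 in vehicle mouse 1 and 4.15 in vehicle mouse 5. The highest siponimod mouse had 1.33 times the Cx3cl1 and 1.12 times the Cxcl12 of the lowest, and 1.93 to 11.1 times for the 5 inducible genes. Among vehicle mice these ratios were 2.77 and 2.24 for the constitutive pair and 3.27 to 10.2 for the 7 inducible genes. Without vehicle mouse 1 they were 1.22 for Cx3cl1 and 1.25 for Cxcl12. In control mice they were 1.09 and 1.06, and 1.69 to 4.81 for the 4 inducible genes with no value of 0.

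The order of levels also differed between groups. In control brain it ran from Cx3cl1 (mean 416 TPM) and Cxcl12 (34.2 TPM) to Ccl6 (2.12 TPM), Ccl9 (1.23 TPM) and Cxcl16 (1.09 TPM), where Ccl6 overlapped Ccl9 and Ccl9 overlapped Cxcl16. Below them lay Ccl12 (0.49 TPM), Ccl2 (0.455 TPM), Cxcl10 (0.323 TPM), Ccl3 (0.215 TPM) and Ccl4 (0.197 TPM), whose neighbours in this order overlapped. In vehicle brain Ccl6 (15.5 TPM) was followed by Ccl3 (8.32 TPM) and Ccl4 (5.85 TPM), with overlapping values, so that the lowest genes of control brain stood next after Ccl6 among the inducible ones. In siponimod brain the same genes averaged 10.4 TPM (Ccl6), 4.07 TPM (Ccl3) and 3.28 TPM (Ccl4), with Ccl9 at 3.95 TPM between the last pair.

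Some cuprizone mice were high or low for many of these genes together. Siponimod mouse 1 had the highest value for 6 of 6 inducible genes and Cxcl16 counted together, as deposited and after scaling to a common median. As deposited, vehicle mouse 5 was highest for 8 of 8 and vehicle mouse 4 lowest for 6 of 8. Scaling turned this order round in part: vehicle mouse 1 was then highest for 5 of 8 (Ccl2, Ccl4, Ccl6, Ccl12 and Cxcl16), vehicle mouse 5 for 3 (Ccl3, Ccl9 and Cxcl10), and vehicle mouse 4 lowest for 7. Scaling did not bring every gene list of vehicle mouse 1 into range, so the scaled ranks of that mouse are uncertain. In control mice no such leader was seen, the highest values being spread over 4 mice, while control mouse 4 was lowest for 5 of 8. As a description over the deviations of 15 mice from their group means, after centring each library, Pearson r was 0.91 between Ccl3 and Cxcl10, 0.86 between Ccl3 and Ccl6 and 0.73 between Ccl6 and Ccl9. Among all pairs of the inducible genes and Cxcl16 the lowest r was 0.36, between Ccl9 and Cxcl16. For Cx3cl1 r was -0.83 with Cxcl16 and -0.76 with Ccl6, but -0.37 with Cxcl10 and -0.35 with Ccl9. For Cxcl12 it ran from -0.40 with Ccl4 to -0.059 with Cxcl10 over the same genes. All values of a mouse share a library and are shares of 1 total.

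Microglial markers moved with these genes. Of 12 markers, 6 were called higher in vehicle against control (9 without both mice numbered 1) and 2 in siponimod against control (again 2). Their summed TPM was 704, 506, 439, 461 and 426 in siponimod mice and 628, 542, 587, 479 and 877 in vehicle mice, against 354 to 401 in control mice. As deposited, siponimod mouse 1 and vehicle mouse 5 were highest in their groups for both this sum and the sum of the 5 inducible chemokines. After scaling to a common median, vehicle mouse 1 led its group instead, with a marker sum of 1370 against 821 in vehicle mouse 5, and inducible sums of 73.5 and 70.9. Siponimod mouse 1 kept its place, at 664 and 47.6. The sum of 7 astrocyte markers was 789 to 1280 in siponimod mice, 691 to 1480 in vehicle mice and 591 to 670 in control mice. Vehicle mouse 1 had the lowest astrocyte sum of its group as deposited (691) and the highest after scaling (1500, against 1380 in vehicle mouse 5). Because scaling also put its endothelial and pericyte sum at 194, against 88.0 to 94.5 in the other vehicle mice, its scaled ranks are uncertain. Oligodendrocyte markers were called lower in both comparisons with control, 6 of 6 in each. In bulk tissue more cells of a type and more RNA per cell cannot be told apart, and the part of these markers in the chemokine values was not tested.

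**Figure D4:**
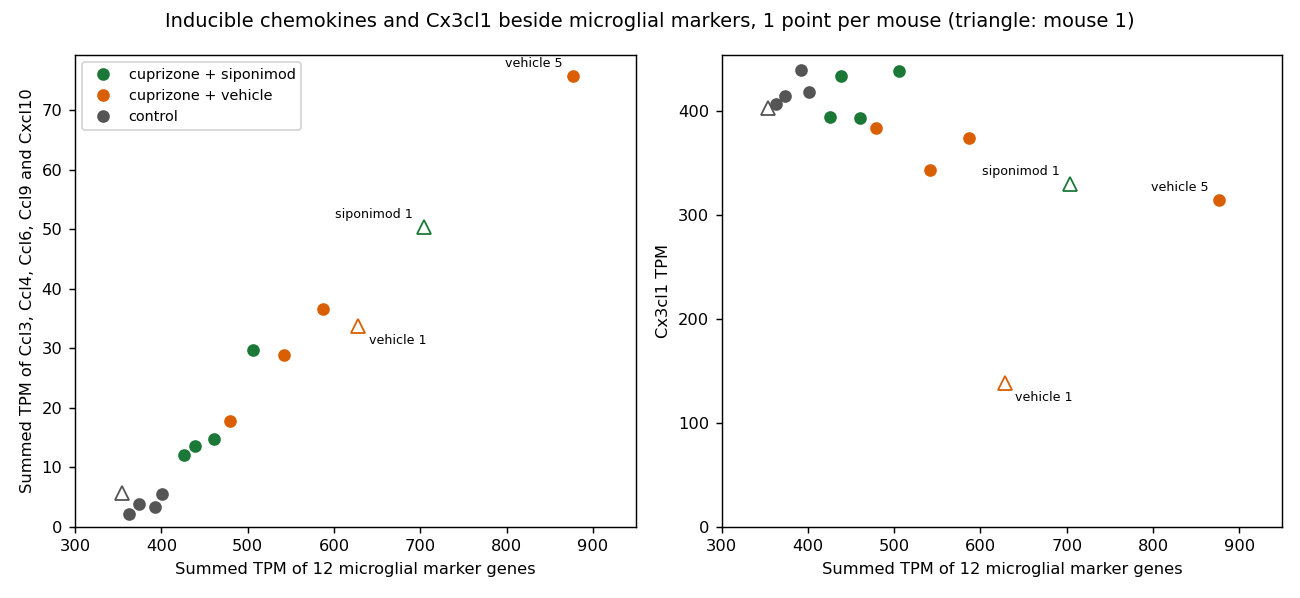
Summed TPM of Ccl3, Ccl4, Ccl6, Ccl9 and Cxcl10 (left) and Cx3cl1 TPM (right) against the summed TPM of 12 microglial markers, 1 point per mouse, triangles for the mice numbered 1, all TPM as deposited. Inducible sums run up to 50.4 in siponimod mouse 1 and 75.7 in vehicle mouse 5, while Cx3cl1 is 138 TPM in vehicle mouse 1 and 314 TPM or more in all other mice.

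Blood-borne cells were checked through their markers, most of which had no values in all mice. Ccr2, the receptor of Ccl2 and Ccl12 and a monocyte marker, was 0.186 ± 0.0791 TPM in siponimod mice, 0.109 ± 0.0442 TPM in vehicle mice and 0.158 ± 0.0445 TPM in control mice (SD, n = 5 each). The B cell gene Cd79a averaged 0.319, 0.283 and 0.273 TPM in siponimod, vehicle and control mice. Vcan, the other monocyte list gene with values, is also expressed by brain cells and averaged 4.58, 4.4 and 4.37 TPM in siponimod, vehicle and control mice. Of the T cell list only Cd4, which myeloid cells also express, had values in all mice, and 0 of 5 neutrophil markers did. Cd3e, Cd3d, Cd3g, Cd8a and Cd2 are not analysed here.

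Of 24 chemokine receptor genes listed, 14 had a row and 9 were tested, and 0 of them passed the test in any comparison with all mice (limma). Ccr1 was too low to be tested, at 0.181, 0.15 and 0.162 TPM in siponimod, vehicle and control mice. Cx3cr1, the microglial receptor of Cx3cl1, averaged 26.8 ± 4.88 TPM in siponimod mice, 28.2 ± 7.91 TPM in vehicle mice and 22.7 ± 1.41 TPM in control mice. When both mice numbered 1 were left out it was called higher in vehicle against control (relative log2 fold change 0.43; adjusted p = 0.0422), as was the Cxcl12 receptor Cxcr4 (0.87; adjusted p = 0.0432). With any 1 mouse left out alone, Cx3cr1 was not called in that comparison (limma adjusted p of 0.0997 or more). Ackr3, which scavenges Cxcl12, averaged 4.41, 4.05 and 4.79 TPM in siponimod, vehicle and control mice and was not called. Cxcr3 and Cxcr6 are not analysed here.

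Among 27 other chemokine ligands, 12 had a row and 8 were tested. Cxcl5, a Cxcr2 ligand that attracts neutrophils, was the only one called with all mice. It averaged 1.19 ± 0.536 TPM in siponimod mice, 1.05 ± 0.31 TPM in vehicle mice and 0.271 ± 0.137 TPM in control mice. Relative log2 fold changes were 1.09 for siponimod against control (limma adjusted p = 0.0114) and 1.21 for vehicle against control (adjusted p = 0.0173). The vehicle call was lost without vehicle mouse 3 (0.0558) or 5 (0.0501) and without control mouse 1 (0.0697), 2 (0.0616) or 3 (0.0519), and the siponimod call without control mouse 1 (0.0532) or with libraries scaled to a common median (0.089). Ccl27a, at 276 ± 37.7 TPM in vehicle mice and 341 ± 22.8 TPM in control mice, was called lower without both mice numbered 1 (-0.35; adjusted p = 0.00774).

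Of 8 genes for chemokine-cleaving proteases and binding partners, all tested, 0 were called with all mice (limma). Adam10, the protease that sheds Cx3cl1 and Cxcl16 from the cell surface, averaged 37.6 ± 1.3 TPM in siponimod mice, 32.9 ± 10.5 TPM in vehicle mice and 37.1 ± 3.16 TPM in control mice. With both mice numbered 1 left out, the heparan sulfate proteoglycan Sdc4 was called higher (0.58; adjusted p = 0.0242) and Bace1 lower (-0.15; adjusted p = 0.0441) in vehicle against control.

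Of 25 upstream cytokines and regulators, 20 were tested and 2 were called, both higher in vehicle against control. Spp1, which encodes osteopontin, averaged 30.2 ± 10.6 TPM in vehicle mice and 10.2 ± 1.94 TPM in control mice (relative log2 fold change 1.68; limma adjusted p = 0.0132). That call was lost without control mouse 5 (adjusted p = 0.0521). Tlr2, an innate immune receptor upstream of NF-kappaB, averaged 2.58 ± 1.54 TPM in vehicle mice and 0.64 ± 0.181 TPM in control mice (1.53; adjusted p = 0.0476). Its call did not hold in 15 of 23 other settings. Without both mice numbered 1, Nfkbia, an NF-kappaB inhibitor and target (0.49; adjusted p = 0.0255), and the microglial factor Irf8 (0.93; adjusted p = 0.00516) were also called higher in vehicle against control. Irf1, an interferon-responsive factor, was then called higher in siponimod against control (0.42; adjusted p = 0.0196).

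Genes whose pattern over the 15 mice was most like that of each member were named by Pearson r of centred log2(TPM + 0.5), among 15861 genes with a mean of at least 1 TPM. Ccl3 and Cxcl10 were each other's closest gene (r = 0.98), and Clec7a came next for both (0.97), followed by Hmox1 for Ccl3 (0.97) and Lag3 for Cxcl10 (0.96). Ccl4 was most like C4b (0.97), which has a near-identical copy, then Tor3a (0.96) and Cst7 (0.96). Ccl6 was most like Cst7 (0.97), Slc15a3 (0.96) and Cd68 (0.96), and Ccl9 like Tbxas1 (0.93), Ccl6 (0.89) and Cd84 (0.88). Cxcl16 was most like Slamf9 (0.98), Plin2 (0.97) and Grn (0.96). Cx3cl1 was most like Mmp17 (0.97), Vopp1 (0.96) and Phyhipl (0.94), while Cxcl12 had lower values with H2ac18 (0.83), Lrrc74b (0.80) and 1110051M20Rik (0.79). The mice share libraries and groups, so these values describe likeness only.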

How the data were processed

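Per the labels' protocols, RNA came from a lipid tissue kit and was turned into stranded total RNA libraries after ribosomal depletion, whereas a 3 prime mRNA analysis is named in the file headers. The submitters' processing notes name bcl2fastq, Trim Galore 0.6.6, STAR 2.6.1d, Salmon 1.4.0 and mm10, without their order. For each pair of groups the authors deposited a table of TPM per mouse, 3 in all. Per the file headers they also hold the authors' log2 fold change and its standard error, a test score, a p-value and adjusted p-value, and a mean signal over libraries. The authors' test is not given in the sources used here. TPM keep no depth, so the depth is unknown and precision rests on the spread between mice.

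Of 19261 genes with a TPM in all 15 mice, 17714 exceeded 0.5 TPM in at least 5 mice and were fitted with limma 3.58.1 (R 4.3.3, trend, empirical Bayes) on log2(TPM + 0.5) with the 3 groups in 1 model. Ccl2 and Ccl12 were fitted in the vehicle and control mice alone. The fit was also run on simulated data with the means and spreads of control mice. Those data held no library like vehicle mouse 1 and no wider spread in cuprizone mice, so they say nothing about either. Members, classes and gene lists were chosen with earlier results of these data known. Named genes are the 10 members, list genes that passed a test, the members' receptors (1 gene that this rule takes is not reported here), the 3 genes most like each member, and Adam10, Bc1 and the marker genes Cd4, Cd79a and Vcan, the last 5 named after their values were seen. The labels do not say that mice with the same number are related, and p-values measure the spread between these mice. Alternatives were another pseudocount or filter, scaling, leaving out mice, fits of 2 groups and a block for mouse number. Scaled levels and ranks by mouse were added after the data were seen. Python 3.11.15, pandas 2.3.3 and numpy 2.4.6 did the rest. Gene positions came from GENCODE M21 and promoters from RefSeq, in which 7 of 10 members matched by symbol.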

Additional observations from a re-analysis of the deposited data

Results flagged for a closer look

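Cx3cl1 in vehicle mouse 1, at 138 TPM, stood apart from the other 4 vehicle mice, of which the next lowest had 314 TPM. The gap was 0.718 of the group's range, above the Dixon value of 0.71 for 5 samples. It was 1 of 28 combinations of member and group examined, and chance gives such a value in about 1 of 20 groups. The same library had a median TPM of 5.54 and 35.3% of its TPM from Bc1. With libraries scaled to a common median its Cx3cl1 was 301 TPM, within the 294 to 381 TPM of the other vehicle mice.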

How the results depend on the processing

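Of 583 combinations of a member's comparison and an alternative, 567 kept their direction and side of the threshold, 6 lost a call, 10 gained one and 0 changed direction. Some alternatives leave the estimate nearly in place by design and move mainly the spread. These are the block, the fits of 2 groups and those without a mouse of the third group. Their kept directions carry no information. In vehicle against control 220 genes were called with all mice (75 higher), 426 after scaling libraries to a common median (244 higher), 768 without both mice numbered 1, and 128 to 652 when leaving out each mouse in turn. The lowest was without control mouse 4, with 138 without control mouse 1, 142 without control mouse 5 and 652 without vehicle mouse 1. In siponimod against control 132 genes were called, 209 after scaling, 352 without both mice numbered 1, 507 with those groups fitted alone, and 82 to 492 when leaving out each mouse in turn. The lowest was without control mouse 1 or 4 and the highest without vehicle mouse 1. Members called in siponimod against control numbered 3, and 5 with the groups alone, with 2 to 4 when leaving out each mouse. In vehicle against control they numbered 5 to 6 when leaving out each mouse. Siponimod against vehicle gave 0 calls under every alternative run.

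Deviations of mice with the same number were only weakly correlated (-0.0552 to 0.201). Some mice were closest to their own number and most were not, and the main fit did not treat them as pairs. With mouse number as a replicate block, 178 genes were called in vehicle against control, 111 in siponimod against control and 0 in siponimod against vehicle. The calls of Cxcl5 (adjusted p = 0.0587) and Tlr2 (adjusted p = 0.117) in vehicle against control were lost under the block, and no call of a member was.

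The causes of these shifts were not tested. Genes near 0 in control mice, such as Ccl3 and Ccl4, have fold changes that depend on the pseudocount, and the depth behind their values is unknown.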
